A study of Mus musculus with 6 samples.

Results

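A set of 10 genes of extracellular adenosine and cyclic AMP signalling were followed in colonic lamina propria macrophages (LP MΦs) of mice with and without the beta chain of the IL10 receptor. They were taken from the RNA sequencing (RNA-seq) gene table by symbol, and comprise the adenosine receptors Adora2a, Adora2b and Adora3, the surface enzymes Entpd1 and Nt5e, the deaminase Ada, the transcription factor gene Crem, the phosphodiesterase Pde4b and the ATP-gated channels P2rx7 and P2rx4. These 10 symbols matched 11 of the 14097 rows of the table, because Adora3 stands on 2 rows. Of the 11 rows, 10 reached 50 normalized counts in at least 1 library, as did 11067 rows of the whole table. Adora2a, Adora2b and Crem were chosen on their higher level in Il10rb-/- MΦs, so their genotype values are a description and were not tested, whereas the other 7 genes were taken for their place in the pathway.

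The study followed the start of colitis in Il10rb-/- mice, and asked by RNA-seq whether MΦs that are normally anti-inflammatory keep that program without the receptor. All mice were of the 129SvEv strain and untreated. The controls were Il10rb+/- littermates, which themselves carry 1 disrupted allele, so no wild-type mouse is part of these data. CD45+CD11b+CD11cintCD103-CD64+Ly6C-MHCII+ cells, the P3/P4 MΦs of the study, were sorted from the colon straight into lysis buffer. The 6 libraries were Il10rb+/- and Il10rb-/- MΦs at 1 week of age, each from a pool of 3 to 5 mice by the labels, and the same genotypes at 3 and at 12 weeks, each from 1 mouse. There was thus 1 library per genotype and age, so a difference at a single age has no replicate check, and the intervals given are 95% counting intervals of the reads only.

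ATP leaves stressed or dying cells and acts on P2X channels and P2Y receptors. Entpd1 (CD39) and Nt5e (CD73) on the cell surface convert it stepwise to adenosine, which Ada breaks down to inosine. The receptors Adora2a and Adora2b couple to Gs and raise cyclic AMP, Adora3 couples to Gi and lowers it, PDE4 enzymes hydrolyse cyclic AMP, and Crem encodes activating and repressing (ICER) factors that bind cyclic AMP response elements. In macrophages, the pathway is known for restraining the output of inflammatory cytokines.

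Values are normalized counts, the reads on a gene divided by the size factor of its library. The listed genes held between 6700337 reads (3-week Il10rb+/-) and 40754971 reads (12-week Il10rb+/-), so that 1 read was worth between 0.473 and 2.43 normalized counts. Il10rb had 1221, 939 and 1107 normalized counts in Il10rb+/- MΦs at 1, 3 and 12 weeks and 12.0, 24.6 and 27.4 in Il10rb-/- MΦs, which fits the labels. All 13 macrophage markers checked were at 50 normalized counts or more in every library. The 12-week Il10rb-/- library stood apart from the other 5 in macrophage, monocyte and neutrophil markers. Its Adgre1 (F4/80) was 3800 normalized counts against 16537 to 25071 elsewhere, and its Cx3cr1 was 906 against 8074 to 20086. Not all macrophage markers were low there. Against the 12-week Il10rb+/- library, Fcgr1 (CD64) was at 1324 and 1285 in the control, and Csf1r at 46878 and 47225. Itgam (2040 and 1454) and H2-Ab1 (398482 and 324510) were higher without the receptor. The monocyte gene Ly6c2, whose protein belongs to the surface antigen the sort gated out, was at 2611 against 4.49 to 285. Ccr2, also on the monocyte list, was at 13312, within the 3960 to 20629 of the other libraries. The summed level of 8 neutrophil markers was 6592 against 84.3 to 544, although their defining Ly6g reached only 15.9. At 12 weeks, of the markers past the filter, 7 of 13 macrophage and 7 of 7 B and plasma cell markers were over 3-fold lower in Il10rb-/- MΦs. In the same pair 5 of 6 monocyte, 5 of 6 neutrophil, 4 of 8 epithelial and 1 of 5 dendritic cell markers (Ccr7) were over 3-fold higher. Of the remaining lists, 6 of 8 fibroblast and endothelial and 2 of 2 eosinophil markers were lower, 2 of 6 T cell markers were higher and 1 lower, and the single mast cell marker, Kit, was higher. The 12-week Il10rb+/- library had a high B and plasma cell sum, 17670 normalized counts against 752 to 2323 in the others (1911 in 12-week Il10rb-/-). Its fibroblast and endothelial sum, 5372, was also the highest. The younger pairs differed too. At 1 week 5 of 8 epithelial and 5 of 8 fibroblast and endothelial markers were over 3-fold higher in Il10rb-/- MΦs. At 3 weeks 2 of 6 monocyte markers, among them Ly6c2 (9.73 against 285), were higher and 1 lower, and Ccr7 and Kit were higher. In each other list at most 1 marker passed 3-fold in either direction at these ages. Each value below therefore stands beside the marker changes of its pair, and the part of other cells in it was not tested. In sorted bulk RNA, more cells of a type and more RNA per cell cannot be told apart.

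**Figure D1:**
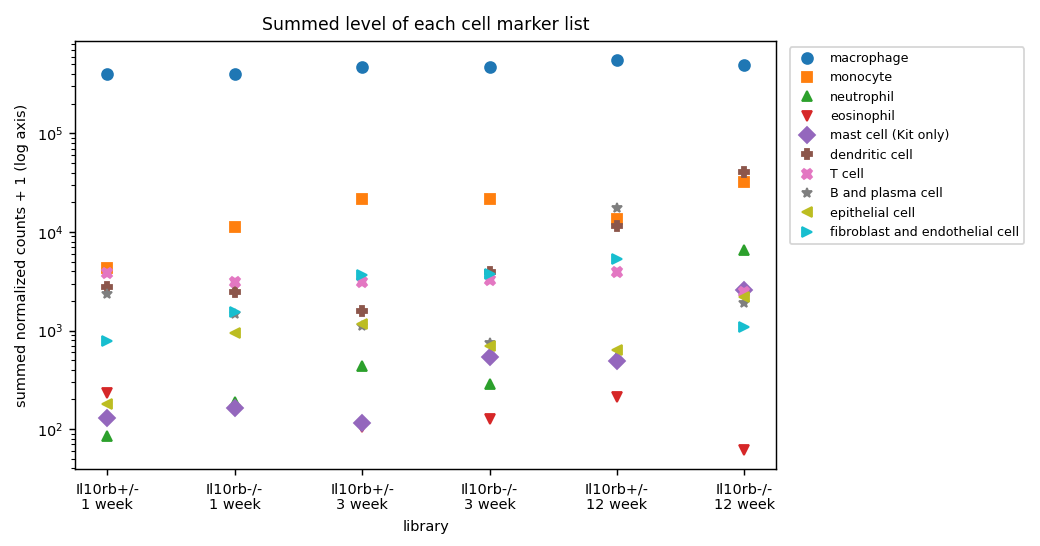
Summed normalized counts (plus 1, log axis) of 10 cell marker lists in each of the 6 libraries, 1 symbol a list. The macrophage list lies between 396891 and 551614, but without H2-Ab1, which makes up 398482 of the 496534 in the 12-week Il10rb-/- library, it is there at 98052 against 225112 to 257332 in the others. The monocyte, neutrophil, dendritic cell and epithelial lists are highest in the 12-week Il10rb-/- library, as is Kit, the single mast cell marker. Ccr7 makes up 38707 of the 40970 of the dendritic cell list there.

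The promoters were examined for the element that Crem and Creb1 proteins bind, since Crem is 1 of the 10 genes. RefSeq promoter windows of 300 bases on GRCm38.p6, 250 before and 50 after a start, were at hand for 8 of the 10 genes, with 13 windows in all. Adora2a and Crem were without an entry. None of the 13 windows held the full element TGACGTCA, which was found in 1.79% of all 32851 promoter windows. The shorter core TGACG, searched on both strands and contained in the full element, was found in 4 of 13 windows against 20.8% of all windows. Those 4 belonged to Pde4b (1), P2rx4 (1) and Entpd1 (2). The 250 bases before the start are shown for 3 genes as examples. Adora2b has no site, Pde4b has 1 in the window shown, and P2rx4 has 2. The 3 were chosen with their levels known, and any relation of sites to levels was not tested. Pde4b has several windows, and the window shown was taken because it alone holds the site. Capitals mark this core, here read as CGTCA on the opposite strand.
Adora2b, chr11:62248734-62248983, + strand: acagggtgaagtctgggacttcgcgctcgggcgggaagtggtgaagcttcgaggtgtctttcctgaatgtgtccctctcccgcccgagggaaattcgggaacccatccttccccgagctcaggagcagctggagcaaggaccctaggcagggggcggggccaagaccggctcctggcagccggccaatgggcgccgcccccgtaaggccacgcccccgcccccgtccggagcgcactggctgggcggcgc
Pde4b, chr4:102421305-102421554, + strand: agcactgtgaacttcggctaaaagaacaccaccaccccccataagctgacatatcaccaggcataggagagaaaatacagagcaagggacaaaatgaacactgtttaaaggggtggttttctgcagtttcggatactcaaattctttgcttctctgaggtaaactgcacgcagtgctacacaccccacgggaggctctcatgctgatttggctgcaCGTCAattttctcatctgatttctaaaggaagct
P2rx4, chr5:122707294-122707543, + strand: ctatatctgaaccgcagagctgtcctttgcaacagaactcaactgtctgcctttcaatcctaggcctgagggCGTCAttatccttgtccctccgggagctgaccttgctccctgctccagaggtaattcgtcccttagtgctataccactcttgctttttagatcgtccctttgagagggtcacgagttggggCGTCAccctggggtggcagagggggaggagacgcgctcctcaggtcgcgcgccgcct
The Pde4b site begins 34 bases upstream of that start, and the P2rx4 sites begin 178 and 57 bases upstream. A match of letters is a description of these windows only, and says nothing of occupancy by either factor.

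Of the receptors, Adora2a was the one with the widest range. The gene lies on the + strand of chromosome 10 (GRCm38, 75316877 to 75334784). In Il10rb+/- MΦs it had 31.7 normalized counts at 1 week, 9.73 at 3 weeks (4 reads) and 363 at 12 weeks. In Il10rb-/- MΦs it had 41.9, 254 and 2369. The genotypes were close at 1 week, with a log2 ratio (Il10rb-/- over Il10rb+/-) of 0.40 and an interval from -0.38 to 1.18 that includes no difference. At 3 weeks the ratio was 26.1-fold (log2 4.71, interval 3.33 to 6.59), a wide interval because the Il10rb+/- value rests on 4 reads in the shallowest library. The part of the marker changes of that pair in this ratio was not tested. At 12 weeks it was 6.53-fold (log2 2.71, interval 2.59 to 2.82).

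Adora2b, the receptor with low affinity for adenosine, was higher in the Il10rb-/- library at all 3 ages. The gene is on chromosome 11, + strand, from 62248984 to 62266453. Its values were 48.6, 173 and 1179 normalized counts at 1, 3 and 12 weeks in Il10rb+/- MΦs, and 205, 472 and 3739 in Il10rb-/- MΦs. The ratio was 4.22-fold at 1 week (log2 2.08, interval 1.60 to 2.58), 2.73-fold at 3 weeks (log2 1.45, interval 1.09 to 1.83) and 3.17-fold at 12 weeks (log2 1.67, interval 1.60 to 1.73). The 3 intervals all lay above 0, and unlike Adora2a the gene differed at 1 week as well as in the adult. The part of the epithelial, fibroblast and endothelial marker changes of the 1-week pair was not tested. The 3-week Il10rb-/- value stayed under the 12-week Il10rb+/- value, so Adora2b varied over age at least as widely as between genotypes.

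Adora3 went the other way. Its main row (ENSMUSG00000000562, chromosome 3, 105870858 to 105908926, + strand) had 219, 146 and 107 normalized counts at 1, 3 and 12 weeks in Il10rb+/- MΦs and 178, 115 and 33.7 in Il10rb-/- MΦs. The intervals of the log2 ratio included 0 at 1 week (-0.30, from -0.63 to 0.03) and at 3 weeks (-0.34, from -0.79 to 0.12). At 12 weeks the gene was 3.17-fold lower in Il10rb-/- MΦs (log2 -1.66, interval -2.12 to -1.23). The second row with this symbol, ENSMUSG00000074344, which GENCODE names Tmigd3, held between 1 and 4 reads in each library and gives no usable ratio. Both loci share 779 exon bases, 20.9% of those of the main row, so the counting rule can shift reads between them.

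Adora2b led the adenosine receptors, scaled to exon length, in all but 1 of the 6 libraries. Per kilobase of exon, Adora3 was the highest of the 3 in 1-week Il10rb+/- MΦs, at 58.8 normalized counts per kilobase against 26.3 for Adora2b and 10.4 for Adora2a. In every other library Adora2b was the highest. In 12-week Il10rb-/- MΦs Adora2b stood at 2027 normalized counts per kilobase, Adora2a at 774 and Adora3 at 9.05, so the Gs-coupled pair exceeded the Gi-coupled receptor 224-fold and 85.5-fold. The same ratios were 22.3-fold and 4.14-fold in 12-week Il10rb+/- MΦs. Among all 10 genes, Pde4b or Entpd1 was the highest per kilobase in each library. Nt5e was the lowest in 5 of the 6, and Adora3 in the 12-week Il10rb-/- library.

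**Figure D2:**
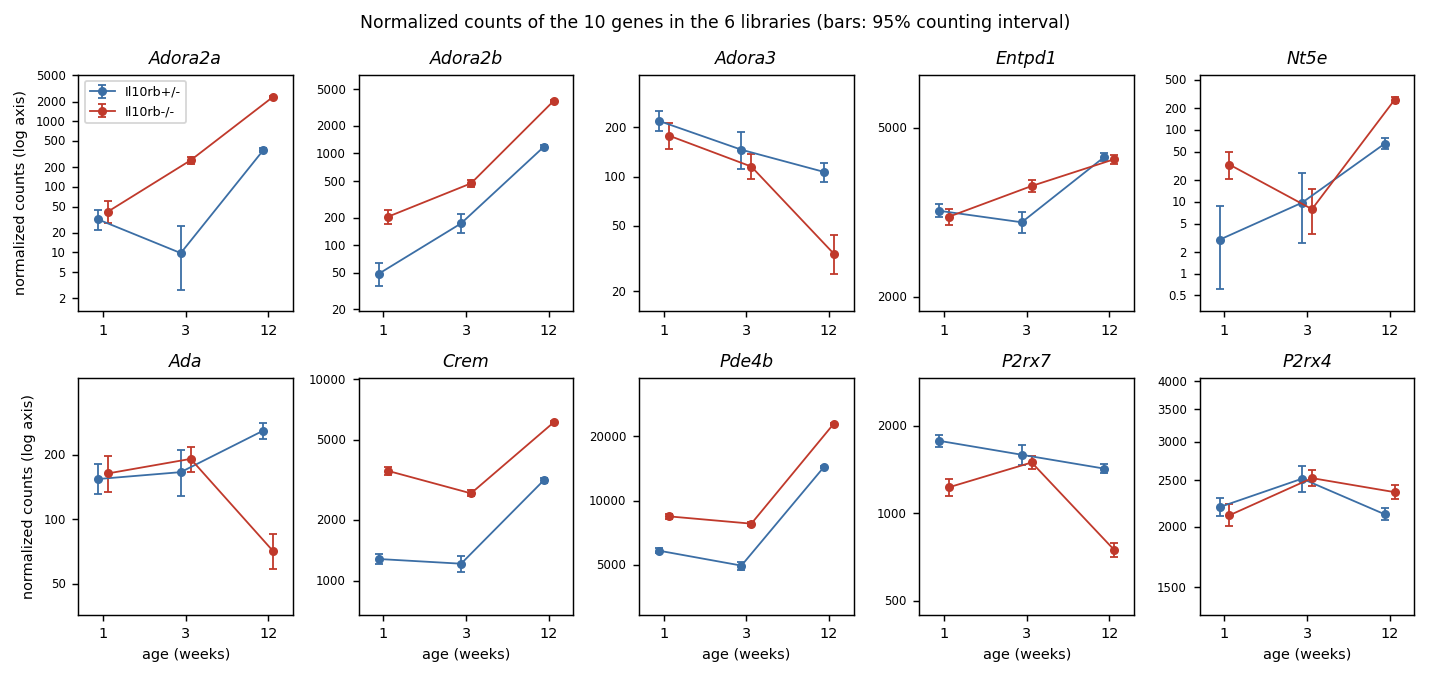
Normalized counts (log axis) of each of the 10 genes at 1, 3 and 12 weeks in Il10rb+/- (blue) and Il10rb-/- (red) MΦs, 1 library a point, with 95% counting intervals. The red points of Adora2b, Crem and Pde4b lie above the blue ones at all 3 ages, Entpd1 and P2rx4 stay nearly level, and Ada, Adora3 and P2rx7 are lowest in the 12-week Il10rb-/- library.

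Entpd1, which hydrolyses ATP and ADP to AMP, was among the most abundant and the most even of the genes. Its level (chromosome 19, 40612366 to 40741602, + strand) was 3189, 2996 and 4271 normalized counts in Il10rb+/- MΦs and 3088, 3648 and 4219 in Il10rb-/- MΦs at 1, 3 and 12 weeks. The log2 ratio was -0.05 at 1 week (interval -0.13 to 0.03), 0.28 at 3 weeks (interval 0.19 to 0.38) and -0.02 at 12 weeks (interval -0.06 to 0.03). The 3-week value was 1.22-fold higher in Il10rb-/- MΦs, and the other ages did not differ beyond counting error.

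Nt5e, which makes adenosine from AMP, was scarce. It lies on the + strand of chromosome 9 (88327197 to 88372092). Il10rb+/- MΦs had 2.97 normalized counts at 1 week (3 reads), 9.73 at 3 weeks (4 reads) and 64.3 at 12 weeks (136 reads), and Il10rb-/- MΦs had 33.0 (22 reads), 7.91 (9 reads) and 262 (411 reads). The ratio at 1 week was 11.1-fold with a counting interval of the log2 ratio from 1.73 to 5.85, and at 12 weeks it was 4.07-fold (log2 2.03, interval 1.74 to 2.32). In the 1-week pair, 5 of 8 epithelial and 5 of 8 fibroblast and endothelial markers were also over 3-fold higher in Il10rb-/- MΦs, and their part in the Nt5e value was not tested. At 12 weeks 4 of 8 epithelial markers were higher and 6 of 8 fibroblast and endothelial markers lower. At 3 weeks no difference was detectable at this depth (log2 -0.30, interval -2.14 to 1.85). Per kilobase, Entpd1 exceeded Nt5e between 24.9-fold (12-week Il10rb-/-) and 1653-fold (1-week Il10rb+/-), so the messenger for the enzyme of the last step was the lower of both in every library.

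Ada, which removes adenosine, was level through 3 weeks and then parted. Its values (chromosome 2, 163726584 to 163750239, - strand) were 154, 165 and 259 normalized counts in Il10rb+/- MΦs and 163, 191 and 70.7 in Il10rb-/- MΦs. The intervals of the log2 ratio included 0 at 1 week (0.09, from -0.28 to 0.45) and at 3 weeks (0.21, from -0.19 to 0.62). At 12 weeks Ada was 3.66-fold lower in Il10rb-/- MΦs (log2 -1.87, interval -2.18 to -1.57). Between 3 and 12 weeks it was 1.56-fold higher in the older Il10rb+/- library and 2.70-fold lower in the older Il10rb-/- library, with both intervals clear of 0.

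The ATP-gated channels are neighbours on chromosome 5, P2rx7 from 122643911 to 122691432 and P2rx4 from 122707544 to 122729738, both on the + strand and 16.1 kilobases apart, yet their levels did not move together. P2rx7, whose channel opens at high ATP and drives the inflammasome, had 1775, 1589 and 1424 normalized counts at 1, 3 and 12 weeks in Il10rb+/- MΦs and 1228, 1495 and 747 in Il10rb-/- MΦs. It was lower in the Il10rb-/- library at 1 week (log2 -0.53, interval -0.65 to -0.41) and 12 weeks (log2 -0.93, interval -1.03 to -0.83), but not beyond counting error at 3 weeks (log2 -0.09, interval -0.22 to 0.04). P2rx4, which opens at lower ATP, had 2197, 2516 and 2124 normalized counts in Il10rb+/- MΦs and 2113, 2523 and 2360 in Il10rb-/- MΦs. The ratio (log2) was -0.06, 0.00 and 0.15 at the 3 ages, and the 12-week interval alone lay off 0 (0.09 to 0.22). Per kilobase, P2rx4 exceeded P2rx7 by 1.05-fold to 1.46-fold in 5 libraries and by 2.68-fold in the 12-week Il10rb-/- library.

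Downstream of the receptors, Crem was higher in the Il10rb-/- library at each age. The gene is on the - strand of chromosome 18 (3266048 to 3337748). Il10rb+/- MΦs had 1279, 1212 and 3143 normalized counts at 1, 3 and 12 weeks and Il10rb-/- MΦs had 3500, 2710 and 6098. The log2 ratio was 1.45 at 1 week (interval 1.35 to 1.55), 1.16 at 3 weeks (interval 1.02 to 1.30) and 0.96 at 12 weeks (interval 0.91 to 1.00), so the gap was widest in the youngest pair, which came from pooled mice. The part of the epithelial, fibroblast and endothelial marker changes of that pair was not tested. Gene-level counts do not separate the activating from the ICER transcripts. Crem shares 472 exon bases with Gm6225 on the opposite strand, and reads there cannot be assigned without strand.

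Pde4b, the phosphodiesterase that limits cyclic AMP in myeloid cells, was the most abundant of the 10 by normalized counts. From chromosome 4 (102087543 to 102607259, + strand) it gave 5817, 4950 and 14381 normalized counts at 1, 3 and 12 weeks in Il10rb+/- MΦs and 8428, 7787 and 22976 in Il10rb-/- MΦs. The ratio was 1.45-fold, 1.57-fold and 1.60-fold at the 3 ages (log2 0.53, 0.65 and 0.68), each interval above 0. It was the steadiest genotype difference of the 7 genes that were not chosen for one.

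**Figure D3:**
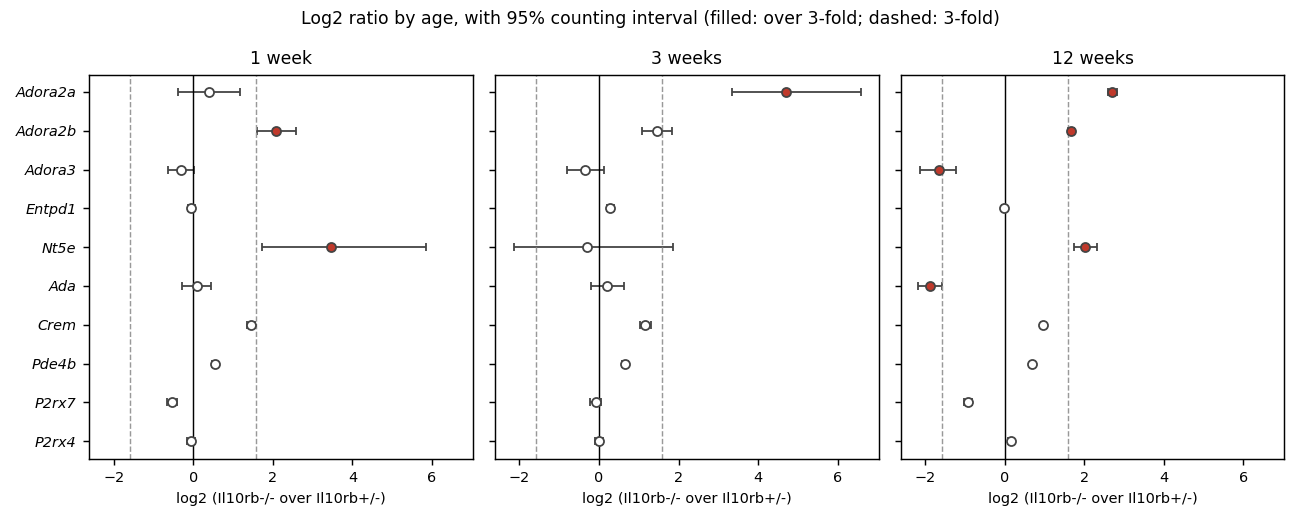
Log2 ratio of Il10rb-/- over Il10rb+/- for the 10 genes at each age, with 95% counting intervals, filled where the ratio passed 3-fold in either direction (dashed lines). Filled points number 2 at 1 week, 1 at 3 weeks and 5 at 12 weeks, where 3 are higher and 2 lower.

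Counted by a 3-fold difference, 2 of the 10 genes were higher at 1 week (Adora2b and Nt5e), against 2.75% of all genes past the filter, and 0 were lower, against 0.75%. At 3 weeks 1 was higher (Adora2a), against 1.34%, and 0 were lower, against 0.642%. At 12 weeks 3 were higher (Adora2a, Adora2b and Nt5e), against 4.03%, and 2 were lower (Adora3 and Ada), against 9.99%. Since Adora2a and Adora2b were picked for being higher, nothing is read from their place in these counts. Without them and Crem, the 7 remaining genes gave 1, 0 and 1 higher and 0, 0 and 2 lower at the 3 ages. Their median log2 ratio was -0.05, 0.00 and -0.02, beside -0.04, 0.02 and 0.04 over all genes past the filter. At 12 weeks Adora2b left the 3-fold group when libraries were scaled by total reads (log2 1.44), a scaling that put the median of all genes at -0.19 instead of 0.04.

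The genotypes were compared over the 3 ages together by limma with age as a term, so the error of the test is how far the effect of genotype varied from age to age. No gene of the 11067 passed an adjusted p of 0.05 (0.0%), and 853 had an unadjusted p under 0.05. Il10rb itself differed by -5.68 (log2, SE 0.34) and was not called either (limma adjusted p = 0.0616). A missing call thus says little about smaller differences. None of the 7 genes free of selection was called. Pde4b differed by 0.62 (log2, SE 0.16) with a limma adjusted p of 0.63, higher in 3 of 3 Il10rb-/- libraries. P2rx7 differed by -0.52 (SE 0.21), lower in 3 of 3, and Adora3 by -0.76 (SE 0.35), also lower in 3 of 3, each with an adjusted p of 0.63. Nt5e differed by 1.61 (SE 0.83), likewise with an adjusted p of 0.63, and was higher in 2 of 3. Ada differed by -0.52 (SE 0.45, adjusted p = 0.71), and without the 12-week Il10rb-/- library by 0.15 (SE 0.26). As age is a term, leaving out either 12-week library takes the whole 12-week pair from this comparison, so the sign of Ada rested on that pair. Without the pair, Pde4b differed by 0.59 (SE 0.19), P2rx7 by -0.31 (SE 0.19), Adora3 by -0.32 (SE 0.27) and Nt5e by 1.41 (SE 0.84). Entpd1 (0.07, SE 0.16) and P2rx4 (0.03, SE 0.15) stayed within 1 SE of no difference.

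Age was tested in the same fit for the 7 genes that were not picked. Adora2a, Adora2b and Crem were picked for a rise in the Il10rb-/- columns, which are also part of each age step, so their age values are a description. Both 12-week values lay above both 3-week values for 3 of the 7 (Pde4b, Entpd1 and Nt5e), against 28.0% of all genes past the filter, and below them for 3 (P2rx4, P2rx7 and Adora3), against 25.3%. Nt5e passed the filter only through its 12-week values, so its difference between 12 and 3 weeks, here and below, is a description. The factor of 12 over 3 weeks was 2.91 in Il10rb+/- and 2.95 in Il10rb-/- MΦs for Pde4b, so the genotypes were close. Nt5e was 6.61-fold higher (log2 2.72, interval 1.33 to 4.62) in the controls, from 4 reads, and 33.1-fold higher in the Il10rb-/- pair. Adora3 had a lower value at each later age in both genotypes, and its 12-over-3-week log2 ratio was -0.45 in the controls and -1.77 in the Il10rb-/- pair. Of the picked genes, Adora2b was 6.82-fold and 7.92-fold higher at 12 than at 3 weeks in the control and the Il10rb-/- pair, Crem 2.59-fold and 2.25-fold, and Adora2a 37.3-fold (log2 5.22, interval 3.86 to 7.10, from 4 reads) and 9.32-fold.

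Over both genotypes, the 12-week minus 3-week difference in log2 was 1.55 for Pde4b (SE 0.20, limma adjusted p = 0.0902), 3.74 for Nt5e (SE 1.02, adjusted p = 0.176) and -1.09 for Adora3 (SE 0.43, adjusted p = 0.242). None of the 7 genes was called, against 3 of all genes (0.0271%), and 2261 genes had an unadjusted p under 0.05. Between 1 and 3 weeks none of the 7 was called either, against 2 of all genes (0.0181%), with 957 at an unadjusted p under 0.05. Age coincides with pooling at 1 week and with depth at 12 weeks, since both 12-week libraries were the deepest, and these cannot be told apart from age.

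Leaving out a 12-week library brought calls among the 7. Without the 12-week Il10rb-/- library, limma called 1 of 7 for 12 over 3 weeks, Pde4b (log2 1.51, adjusted p = 0.0036), against 5.94% of all genes. Without the 12-week Il10rb+/- library it called 5 of 7, against 28.2% of all genes. Pde4b (1.59, adjusted p = 0.000437) and Nt5e (4.04, adjusted p = 0.00776) were higher at 12 weeks, and Adora3 (-1.75, adjusted p = 0.00364), Ada (-1.39, adjusted p = 0.0105) and P2rx7 (-0.89, adjusted p = 0.0169) were lower. In either fit 1 library stands for 12 weeks and is assumed to vary like the rest. As Nt5e passed the filter only through its 12-week values, nothing is read from its call.

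The other genes of the pathway were read from 8 lists with 159 genes, of which 120 passed the filter. The lists were chosen with earlier results of these data known, so their counts are a description. At 1 week 6 of the 120 were over 3-fold higher in Il10rb-/- MΦs and 1 lower, against 2.75% and 0.75% of all genes. At 3 weeks 3 were higher and 1 lower, against 1.34% and 0.642%. At 12 weeks 14 were higher and 17 lower, against 4.03% and 9.99%, which are the shares to set beside each 12-week list count below. Their median log2 ratio was -0.08, 0.01 and -0.11 at the 3 ages, beside -0.04, 0.02 and 0.04 over all genes. In limma, 0 of the 120 were called for genotype or for either age step. In 2 genes the ratio passed 3-fold upward in the 3-week and in the 12-week pair. The first was P2rx5, another ATP-gated channel, at 12.2 and 52.8 normalized counts (Il10rb+/- and Il10rb-/-, 5 and 60 reads) at 3 weeks and 19.9 and 160 at 12 weeks. P2rx5 passed the filter only through Il10rb-/- values, so its place here is a description. Its 3-week log2 interval ran from 0.81 to 3.79, so a ratio under 3-fold lies within counting error there. The second was Vegfa, a growth factor gene that adenosine receptors can induce, at 1231 and 5653 at 3 weeks and 4665 and 32309 at 12 weeks. Vegfa was over 3-fold higher at 1 week as well, at 787 and 3090.

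Genes that make, move or break down adenosine (25 past the filter) had 3 members over 3-fold higher and 4 lower at 12 weeks, against 4.03% and 9.99% of all genes, and the median of the log2 ratios was -0.09. The purine nucleoside phosphorylase Pnp, the most abundant per length, had a 12-week log2 ratio of -0.06. Some genes of the list were singled out after their values were seen. In the 12-week pair Adk, the kinase that returns adenosine to AMP, was at 658 in the control and at 191 normalized counts without the receptor, the same direction as Ada. Cd38, which feeds a second route to adenosine from NAD, was at 2092 and 9802.

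Among 11 other nucleotide and adenosine receptors, 2 were over 3-fold higher and 3 lower at 12 weeks, against 4.03% and 9.99% of all genes, with a median of -0.23. P2ry6 and P2ry13, the most abundant per length, had ratios (log2) of -0.20 and -0.74 in the youngest pair, -0.19 and -0.59 in the 3-week pair and -1.26 and -1.31 in the oldest. They lay below 0 at every age. P2rx5, which passed the filter only through Il10rb-/- values, was above 0 at each age.

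Between the receptors and the target genes stand the cyclases, PKA and the CREB family. Of 7 adenylyl cyclase and G protein genes, 0 passed 3-fold at 1 and 3 weeks and 1 was lower at 12 weeks. Gnai2, an inhibitory G protein, and Adcy7, the chief adenylyl cyclase of leukocytes, had 12-week log2 ratios of 0.41 and -0.76. Of 18 PKA, EPAC and anchoring genes, 3 were over 3-fold lower at 12 weeks, against 9.99% of all genes. Singled out after their values were seen, Akap12 was over 3-fold higher at 1 week and Rapgef3 at 3 weeks. Rapgef3 had 0 and 7 reads there and an interval that includes no difference. The PKA subunits Prkar1a and Prkaca were at 0.55 and 0.20 at 12 weeks. None of the 12 CREB family and coactivator genes passed 3-fold at any age. Atf4 and Creb3, the most abundant per length, had 12-week log2 ratios of -0.51 and -0.22. The log2 ratios of the list ran from -0.39 to 0.49 at 1 week, from -0.21 to 0.24 at 3 weeks and from -0.86 to 1.17 at 12 weeks. Crem, which was picked for its rise, lay above that range at the first 2 ages and inside it at 12 weeks.

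Besides Pde4b, 12 phosphodiesterase genes passed the filter, and 5, 4 and 5 of them were above 0 at the 3 ages, as Pde4b was. Their median log2 ratio was -0.02, -0.15 and -0.63, and their highest was 2.31, 0.42 and 2.87. Pde2a and Pde3b, the most abundant of them per length, had ratios (log2) of -0.03 and -0.48 in the youngest pair, -0.22 and -0.35 in the 3-week pair and -1.93 and -1.15 in the oldest.

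Of 24 genes known to respond to cyclic AMP, 7 were over 3-fold higher and 2 lower at 12 weeks, against 4.03% and 9.99% of all genes. As this list too was chosen with earlier results known, nothing is read from that count, and limma called 0 of the 24. Their median ratio was 0.07, 0.20 and 0.26 (log2) at the 3 ages. Many of them also respond to inflammatory signals. The most abundant per length, Fos and Cebpb, had ratios (log2) of -0.25 and 1.02 in the youngest pair, -0.34 and 0.21 in the 3-week pair and -0.23 and 0.91 in the oldest. Ptgs2 and Il10, singled out after their values were seen, went opposite ways at 12 weeks. Ptgs2, the cyclooxygenase of prostaglandin E2 synthesis, had 37245 normalized counts in the control and 251994 without the receptor, where Il10 had 10488 and 2339. Of 11 other Gs-coupled receptor genes, 1 was higher and 2 lower at 12 weeks. The proton sensor Gpr65, the most abundant per length, had a log2 ratio of 0.95 there.

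**Figure D4:**
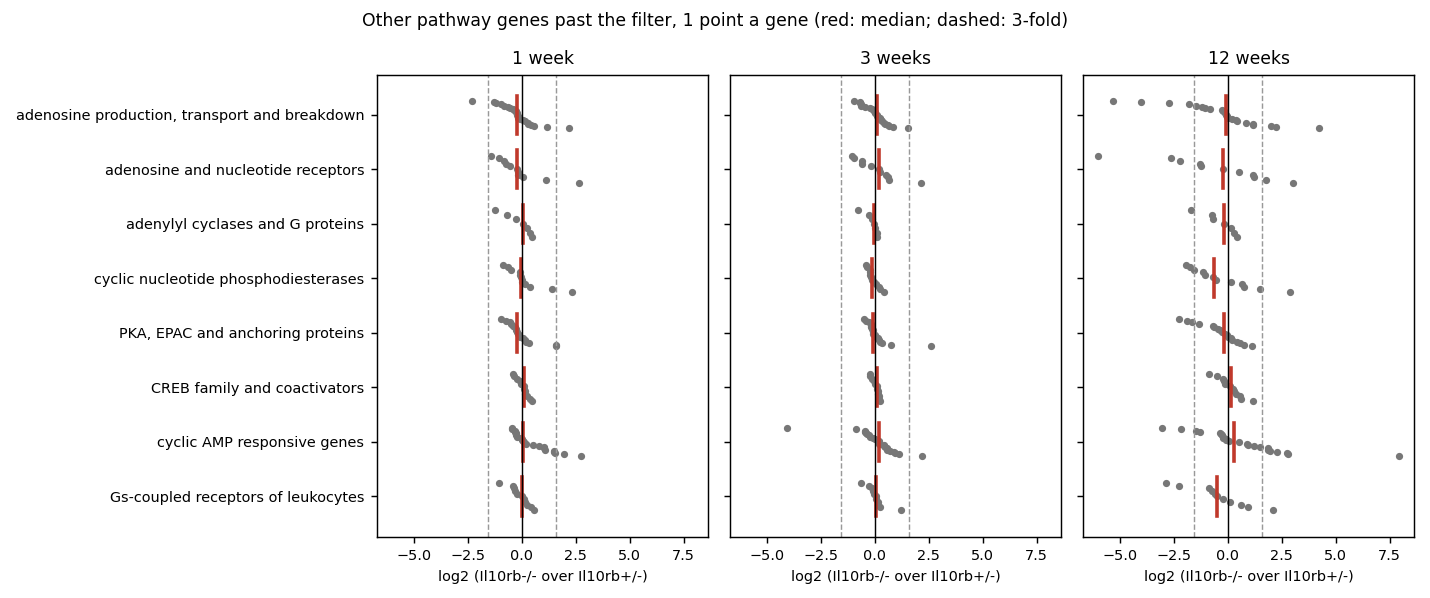
Log2 ratio of Il10rb-/- over Il10rb+/- at each age for the 120 pathway genes past the filter, 1 point a gene and 1 row a list, with the list median in red and 3-fold as dashed lines. The medians stay within 0.25 of 0 at 1 and 3 weeks, and points past 3-fold number 7, 4 and 31 at the 3 ages.

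The genes with the most similar pattern were sought over all 11067 genes by Pearson correlation of log2(value + 1) across the 6 libraries, as a description with no test, since the libraries share age, genotype and depth. Adora2b was nearest to Traf1, a TNF receptor adaptor (r = 0.9996), followed by Bcat2 and Asna1 (each 0.998). Traf1 ran from 340 normalized counts in 1-week Il10rb+/- to 12208 in 12-week Il10rb-/- MΦs, in the same order of libraries as Adora2b. Adora2a was nearest to Grasp (0.996), Il2ra (0.995) and Acat3 (0.994), and Crem to Nudc (0.983), Idh3g (0.983) and Ucp2 (0.982). Such closeness was common, with 94, 275 and 47 genes over 0.95 for Adora2a, Adora2b and Crem.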

How the data were processed

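The deposited table holds 1 signal value per gene and library, a read count normalized between libraries by the authors. Per the labels and the study's methods, reads were trimmed with Trim Galore, aligned to mm10 with TopHat, counted on genes with HTSeq and divided by DESeq size factors, with a count of 0 shown as 1. Versions and the strand setting are not given in the sources used here. Reads were read back from the step of each library (100% of values whole within 0.05 of a read). The library totals of 6700337 to 40754971 reads set the precision, and intervals cover counting error only.

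Log2 ratios were taken on the normalized counts, with exact Clopper-Pearson 95% intervals. Genes at 50 normalized counts or more in at least 1 library were kept, and a ratio over 3-fold was called. Genotype and age were tested with limma 3.58.1 (R 4.3.3) on log2(value + 1) with a mean-variance trend, empirical Bayes moderation and Benjamini-Hochberg adjustment over 11067 genes. As 1 library stood for each group, p-values measure the spread between these libraries. Python 3.11.15, scipy 1.17.1 and matplotlib 3.10.9 were used. The fit and the intervals were tested on simulated data. Coordinates, exon lengths and overlaps are from GENCODE for GRCm38, where 14085 of 14097 gene identifiers were found.

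The members and gene lists were chosen with earlier results of these data known. The genes named are the 10 members, Il10rb, pathway genes over 3-fold the same way at 3 and 12 weeks or called by limma, the 2 most abundant per length of each list, of which some are not reported here, and the 3 nearest patterns. Other names are given as chosen after their values were seen. Marker genes of other cells were read as lists. The alternatives were other pseudocounts, filters, scalings and thresholds, leaving out the other factor, and leaving out each library.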

Additional observations from a re-analysis of the deposited data

Results flagged for a closer look

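For 3 genes the ratio between neighbouring ages lay on opposite sides of 0 in the 2 genotypes, beyond counting error. With 1 library at each age and genotype, the difference between genotypes was not tested. Ada had a log2 ratio of 12 over 3 weeks of 0.64 in Il10rb+/- and -1.43 in Il10rb-/- MΦs. Adora2a, picked for its rise, had a log2 ratio of 3 over 1 week of -1.71 in Il10rb+/- MΦs, where the 3-week value rests on 4 reads, and 2.60 in Il10rb-/- MΦs. P2rx7 had a log2 ratio of 3 over 1 week of -0.16 in Il10rb+/- and 0.28 in Il10rb-/- MΦs.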

How the results depend on the processing

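Over 3-fold, 387, 219 and 1552 genes differed at 1, 3 and 12 weeks. The counts were 125 and 85 at 1 and 3 weeks with a pseudocount of 10, 1124, 895 and 2947 with no filter, 133 and 105 at 1 and 3 weeks with the filter on the 2 libraries compared, and 770, 548 and 2718 over 2-fold. The members over the threshold became 1 at 1 week with that filter, and 2 (no filter) or 3 (over 2-fold) at 3 weeks. limma called 0, 2 and 3 genes for genotype, 3 over 1 week and 12 over 3 weeks. It called 1, 8 and 8 with a pseudocount of 10, and 1, 5 and 1 with the other factor left out. Scaled by total reads, it called 0 for 12 over 3 weeks, and turned the sign of Entpd1 (-0.015) and P2rx4 (-0.055) for genotype and of Entpd1 (-0.085) and P2rx7 (-0.10) for 3 over 1 week, none of them called. Without 1 library each in turn, the counts ran from 0 to 74, 1 to 1016 and 1 to 3124, and calls among the 7 members not picked from 0 to 5 for 12 over 3 weeks. The highest counts came without a 12-week library, which leaves 1 library for that age, so nothing is read from them. Log2 differences that turned sign ranged, for genotype, from -0.032 to 0.13 (Entpd1), -0.89 to 0.15 (Ada) and -0.026 to 0.078 (P2rx4), for 3 over 1 week from -0.083 to 0.23 (Entpd1), -1.66 to 1.16 (Nt5e), -0.38 to 0.71 (Ada) and -0.26 to 0.38 (P2rx7), and for 12 over 3 weeks from -1.39 to 0.61 (Ada). The cause was not tested. The 2 planned count models were not run, since the values are normalized, with 0 shown as 1. No paired analysis was possible because each group held 1 library and the replicate numbers pair no mice. In the 3-week Il10rb+/- library, the shallowest, 3 reads are worth 7.30 normalized counts, which limits Adora2a and Nt5e there.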
